A study of Mus musculus with 16 samples.

Results

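The major urinary protein genes Mup5, Mup9, Mup17, Mup18, Mup19 and Mup20 were followed in mouse skin wounds by the 8 array probes that carry their names, of 39429 probes in all. The 6 genes are among 20833 gene symbols measured. They were chosen by the difference in array signal between db/db and wild-type (WT) wounds, where they were far lower in db/db, so that difference is described here and not tested. Of the 8 probes, 6 were named through RefSeq (Mup5, Mup17, Mup18, Mup19 and 2 probes of Mup20), and the 2 probes of Mup9 were named through the accession that the study pairs with that gene.

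Total RNA came from 4 mm full-thickness dorsal skin wounds with the intact skin around them and was hybridised to 1-colour arrays. The 16 arrays were 2 for each of 4 groups on labelled days 7 and 14 after wounding. WT mice were female C57BL/6J of 10 to 12 weeks. The db/db mice were female C57BLKS/J mice of 10 weeks, homozygous for the Lepr db mutation, which removes the long form of the leptin receptor and leads to obesity and type 2 diabetes. Their wounds were untreated (db/db), given estradiol benzoate in sesame oil at 0.75 µg/g/day (db/db + estrogen), or given sesame oil alone (db/db + vehicle). All db/db groups differ from WT in strain background as well as in Lepr, and these cannot be told apart. No source used here says whether both arrays of a group came from separate mice, so p-values measure the spread between these samples only. In whole-wound RNA, fewer cells of a type and less RNA per cell cannot be told apart.

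Major urinary proteins are small secreted lipocalins, barrel-shaped carriers of greasy small molecules. Mouse liver releases them in quantity, and they pass into urine, where they hold volatile pheromones and act as scent signals themselves. Liver production is driven by pulses of growth hormone and by androgens and is higher in males, while salivary, lacrimal and mammary glands make some members. Mup20 encodes darcin, a male scent protein that attracts females, whereas Mup9, Mup17, Mup18 and Mup19 belong to a group of recent gene copies that differ by very few bases, and Mup5 is an older, more divergent member.

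All 6 genes lie in 1 cluster of 22 Mup genes on chromosome 4, with no other measured protein-coding gene between them. Because the members' levels moved together, the 250 bases before the annotated start are shown for those with an entry in the RefSeq promoter table, beside those of Mup21, a gene of the cluster that was not called with estrogen. Mup5 and Mup20 are named only. The sequences are from RefSeq on build GRCm38.p6, written 5′ to 3′ on the gene's strand, with each TATAA in capitals.
Mup9, chr4:60421953-60422202, minus strand: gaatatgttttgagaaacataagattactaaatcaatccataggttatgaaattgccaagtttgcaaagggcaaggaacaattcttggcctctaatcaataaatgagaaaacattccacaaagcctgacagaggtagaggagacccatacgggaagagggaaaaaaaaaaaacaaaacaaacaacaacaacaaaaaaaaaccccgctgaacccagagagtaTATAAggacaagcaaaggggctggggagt
Mup17, chr4:61595833-61596082, minus strand: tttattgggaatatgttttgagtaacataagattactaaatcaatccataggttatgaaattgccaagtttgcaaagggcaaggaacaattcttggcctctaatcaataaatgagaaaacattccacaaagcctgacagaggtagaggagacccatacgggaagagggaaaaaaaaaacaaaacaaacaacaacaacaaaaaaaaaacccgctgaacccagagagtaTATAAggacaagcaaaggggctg
Mup18, chr4:61674095-61674344, minus strand: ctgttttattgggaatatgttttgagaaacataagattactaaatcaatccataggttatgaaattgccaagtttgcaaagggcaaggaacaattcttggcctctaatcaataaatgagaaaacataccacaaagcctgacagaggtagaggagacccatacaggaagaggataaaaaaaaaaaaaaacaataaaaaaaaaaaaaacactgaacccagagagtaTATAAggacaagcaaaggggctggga
Mup19, chr4:61782225-61782474, minus strand: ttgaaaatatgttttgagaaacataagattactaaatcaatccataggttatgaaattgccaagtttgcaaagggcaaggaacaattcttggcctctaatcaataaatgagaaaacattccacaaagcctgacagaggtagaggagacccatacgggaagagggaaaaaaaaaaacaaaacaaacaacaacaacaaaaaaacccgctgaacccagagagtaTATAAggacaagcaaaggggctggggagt
Mup21, chr4:62150842-62151091, minus strand: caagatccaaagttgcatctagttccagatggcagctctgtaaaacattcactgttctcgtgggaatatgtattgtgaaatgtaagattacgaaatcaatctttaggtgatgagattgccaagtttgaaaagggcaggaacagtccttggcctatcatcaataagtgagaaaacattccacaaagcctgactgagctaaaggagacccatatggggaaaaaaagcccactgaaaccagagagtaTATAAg

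The promoters of Mup9, Mup17, Mup18 and Mup19 were 95.9% to 99.6% identical over their aligned bases. Each of them was 86.7% to 88.2% identical to that of Mup21, over 187 to 199 aligned bases. The promoter of Mup3, which rose with estrogen, was about as far from them, at 87.6% to 89.1%, and 93.9% identical to that of Mup21. Those of Mup2 and of Mup4, whose brighter probe also rose as Mup2 did, were nearer to the members, at 97.5% to 99.2% and 91.1% to 92.5%. Whether promoter identity has a part in the estrogen difference was not tested. TATAA began 23 to 29 bases before the annotated start in the 4 members, 6 bases before it in Mup21 and 9 in Mup3. On either strand, TATAA stood in 11 of 14 Mup promoters and in 22.8% of all 32851 promoters of this length. The spaced pair TTCNNNGAA, the core of STAT5 sites, was in 0 of the 14 and in 7.02% of all promoters. The palindrome that estrogen receptors bind, GGTCA and TGACC with any 3 bases between, was in 0 of the 14 and in 0.0639% of all. Its arm GGTCA, which that palindrome contains, was in Mup4 alone (35.2% of all). Probes for near-identical copies can hybridise with each other's transcripts, and probe sequences were not used here, so a probe's name is not proof that the named copy alone gave the signal.

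Keratinocyte markers marked these samples as skin: all 10 measured genes of that list were well above background on every array. The 75th percentile of an array's signal ran from 1091 to 2549, and 70.1% to 79.0% of probes were well above background. Levels below are log2 of the processed signal minus log2 of that percentile, so 0 is the 75th percentile of the array. They show changes of 1 probe between arrays and not which gene was more abundant. Arrays labelled day 7 were scanned on 1 day and those labelled day 14 on another, so labelled day and scan day cannot be told apart. For these genes, the study's printed tables give under each day heading the values of the arrays labelled with the other day. Days are given as labelled throughout.

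The members were highest in WT wounds, far lower in untreated and vehicle-treated db/db wounds, and intermediate in estrogen-treated db/db wounds of labelled day 7. Mup17, one of the recent copies, had levels of 5.48 and 4.22 on the WT arrays of day 7 and 4.34 and 4.67 on those of day 14. It stood at −2.77 and −4.23 on the db/db arrays of day 7 and −1.46 and −3.09 on those of day 14. With vehicle, Mup17 stood at −3.93 and −3.28 on day 7 and at −3.00 and −1.45 on day 14. The vehicle and untreated db/db arrays overlapped on both days. With estrogen, Mup17 stood at 0.09 and 0.94 on day 7 and at −1.91 and −1.87 on day 14. On day 7 both estrogen arrays were above every other db/db array, and on day 14 they lay inside the range of the untreated and vehicle arrays.

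Mup20, the gene of darcin, was read by 2 probes. Its brighter probe A_55_P2051486 stood at 4.13 and 2.92 in WT and at −3.99 and −5.67 in db/db on day 7. On day 14 it stood at 2.94 and 3.32 in WT and at −3.21 and −4.71 in db/db. Under estrogen this probe stood at −1.05 and −0.17 on day 7 and at −3.44 and −3.35 on day 14, and under vehicle at −4.85 and −4.47, then −4.65 and −2.98. As for Mup17, the WT groups were highest and the estrogen arrays of day 7 came next, apart from the other db/db arrays. Its dimmer probe A_55_P2063654 also separated WT (−1.04, −2.48, −2.29 and −2.07) from all db/db arrays (−3.82 or lower). In that probe the estrogen arrays of day 7, at −4.66 and −3.82, overlapped the untreated pair at −4.55 and −6.33.

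Mup5, the divergent member, stood at 2.66 and 1.37 in WT on day 7 and at 1.21 and 1.66 on day 14. In db/db wounds it stood at −5.58 and −6.81 on day 7 and at −4.40 and −6.35 on day 14. The estrogen arrays were at −2.48 and −1.82 on day 7, above the vehicle arrays at −6.40 and −5.83. On day 14 the estrogen arrays (−4.77 and −4.64) and the vehicle arrays (−4.77 and −4.48) overlapped.

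The recent copies Mup18, Mup19 and Mup9 shared the first 3 ranks, WT of day 7, WT of day 14 and estrogen of day 7, while the overlapping groups below them ranked differently from probe to probe. Mup18 rose from −2.99 and −2.37 with vehicle to 0.93 and 1.81 with estrogen on day 7. Mup19 went from −2.38 and −1.68 to 1.48 and 2.33 on the same arrays. The brighter Mup9 probe A_55_P1979904 went from −3.27 and −2.77 to 0.70 and 1.48. In each of these 3 probes the 4 WT arrays were the highest and the estrogen arrays of day 7 came next. The dimmer Mup9 probe A_52_P402127 was well above background on 7 of 16 arrays: all 4 of WT (−3.00, −4.42, −4.27 and −3.89), both of estrogen on day 7 (−6.17 and −6.63) and 1 of vehicle on day 14 (−6.53). The other 7 probes were above background on 16 arrays each, except the dimmer Mup20 probe with 15.

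**Figure D1:**
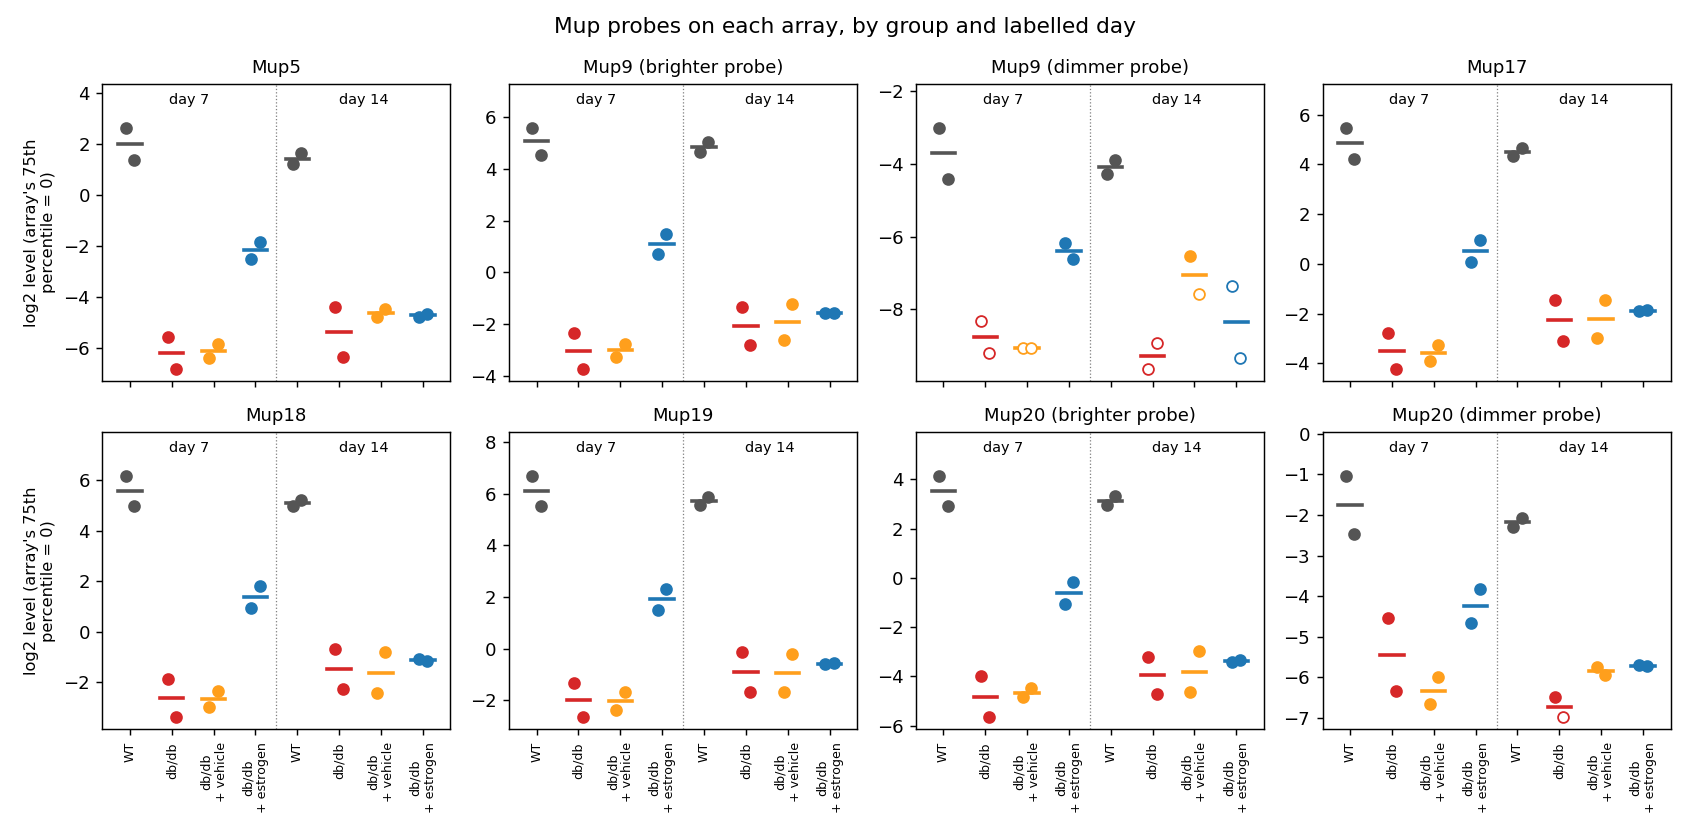
Level of each of the 8 probes on each array (y axis, log2, array's 75th percentile at 0) in the 8 groups (x axis), with labelled day 7 left and day 14 right of the dotted line. Points are arrays, filled where well above background and open where not, and bars are the means of 2 arrays; the scale of the y axis differs between panels. WT arrays are the highest in every panel, and the db/db + estrogen arrays of day 7 stand above the other 10 db/db-group arrays for 6 of 8 probes.

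For all 8 probes the lowest WT array was above both estrogen arrays of day 7. For 6 of the 8, both of these were above the other 10 db/db-group arrays, by a gap of 1.55 (Mup17) to 1.93 (brighter Mup20 probe) on the log2 scale. Among the remaining groups, neighbours in order of mean level overlapped in all these 6 probes. Untreated and vehicle-treated wounds of day 7 had the lowest means in all 6. In WT, days 7 and 14 overlapped for all 8 probes.

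As a description of the difference that chose the members, their level in db/db wounds was 0.305% to 0.366% of that in WT on day 7 for the 6 probes above background throughout. On day 14 it was 0.734% to 1.05%. The dimmer Mup20 probe was at 7.81% and 4.26% of WT. The dimmer Mup9 probe, not well above background in db/db, was at least 12.9-fold lower on day 7 and at least 9.03-fold lower on day 14. Here a lower bound sets the WT mean against the lowest signal called above background on the db/db arrays. The arrays did not overlap for 8 of 8 probes on either day, against 58.1% of all probes tested on day 7 and 65.8% on day 14. On day 14 the untreated db/db arrays shared a slide and the WT arrays shared another, so slide and group cannot be told apart there.

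Treated db/db wounds also stayed below WT. With vehicle, the 6 probes were at 0.285% to 0.366% of WT on day 7 and 0.813% to 1.504% on day 14. With estrogen they were at 4.95% to 6.32% on day 7 and 1.09% to 1.42% on day 14. Arrays of treated wounds and of WT did not overlap for 8 of 8 probes in each of these comparisons. Of all probes tested this held for 57.6% and 54.0% with estrogen and for 56.0% and 64.3% with vehicle, on days 7 and 14. The median log2 difference from WT over the 8 probes was −4.15 with estrogen and −8.13 with vehicle on day 7.

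The comparison of estrogen with its vehicle asks what the hormone adds to oil, and neither group entered the difference that chose the members, although the members were proposed with results of these arrays known. On labelled day 7, all 8 probes were tested, the dimmer Mup9 probe only through its estrogen arrays. All 8 were called higher with estrogen, where called means an unadjusted p under 0.05 and a fold above 2. Over all 30155 probes tested, 8.98% were called in either direction and 4.67% higher. The 6 probes above background throughout rose by 3.94 (Mup19) to 4.12 (Mup17) on the log2 scale. Mup17 was 17.4-fold higher (log2 4.12, SE 0.72, limma's adjusted p = 0.0188), and the brighter Mup9 probe 17.3-fold (log2 4.11, SE 0.65, adjusted p = 0.0132). Mup5 was 15.6-fold higher (log2 3.97, SE 0.65, adjusted p = 0.0144). The brighter Mup20 probe was 16.5-fold higher (log2 4.05, SE 0.73, adjusted p = 0.0217). For Mup18 and Mup19, limma's adjusted p was 0.0203 and 0.0184. These 6 probes passed the adjusted threshold of 0.05, as 3.07% of all probes did. On day 7 the replicate number is also the slide. With the replicate number as a block, 2 of the 6 passed (limma's adjusted p from 0.0408 to 0.0544), and with the 4 slides as a fixed block all 6 did (0.0249 to 0.0363). The adjusted calls did not survive the loss of an array. Without either estrogen array or vehicle replicate 1 none of the 6 passed, and without vehicle replicate 2 only 3 did. With 1 of the 4 arrays left out, limma's adjusted p of the 6 ran from 0.0412 (without vehicle replicate 2) to 0.146 (without estrogen replicate 2), while all stayed called by the unadjusted p and fold.

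The dimmer probes changed in the same direction by less. The dimmer Mup20 probe rose 4.24-fold (log2 2.09, SE 0.59), and with limma's adjusted p of 0.0856 it did not pass after adjustment. The dimmer Mup9 probe, above background only with estrogen, was at least 1.81-fold higher, with a fitted log2 difference of 2.67 (SE 0.67, adjusted p = 0.0606). It entered the test through the estrogen group alone. Both estrogen arrays were above both vehicle arrays for 8 of 8 probes. Of all probes tested, 58.8% had arrays of these groups that did not overlap, counted in either direction. On each of the 2 slides of day 7, which each carried 1 array of every group, all 8 probes were higher with estrogen. The median difference over the 8 probes was 3.89 on one slide and 4.09 on the other. For all probes tested, the fitted difference of group means over both slides had a median of 0.01.

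On labelled day 14, 7 probes were tested and 0 were called between estrogen and vehicle, and none had an unadjusted p below 0.05 in limma. Of all probes tested, 0.984% were called. Mup17 differed by 0.34 with a 95% confidence interval from −1.26 to 1.94, and Mup5 by −0.09 (−1.53 to 1.36). The brighter Mup20 probe differed by 0.42 (−1.21 to 2.05). With 2 arrays a group these intervals are wide, and any difference inside them remains compatible with the data. Within the slides the median over the 8 probes was 1.07 on one and −0.35 on the other. The dimmer Mup9 probe was not tested, being above background on 1 vehicle array only.

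The difference between both days was itself tested, as the estrogen minus vehicle difference of day 7 less that of day 14. All 8 probes were called, the dimmer Mup9 probe only through the estrogen arrays of day 7, against 7.14% of all probes in either direction and 3.95% in the same direction. The fitted value ran from 1.95 for the dimmer Mup20 probe to 4.05 for Mup5 (SE 0.84 and 0.91). After normexp background correction 6 were called, without the dimmer Mup9 and Mup20 probes. None passed adjustment: limma's adjusted p ran from 0.164 for Mup5 to 0.427 for the dimmer Mup20 probe. Over all probes, 0.00979% passed it.

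**Figure D2:**
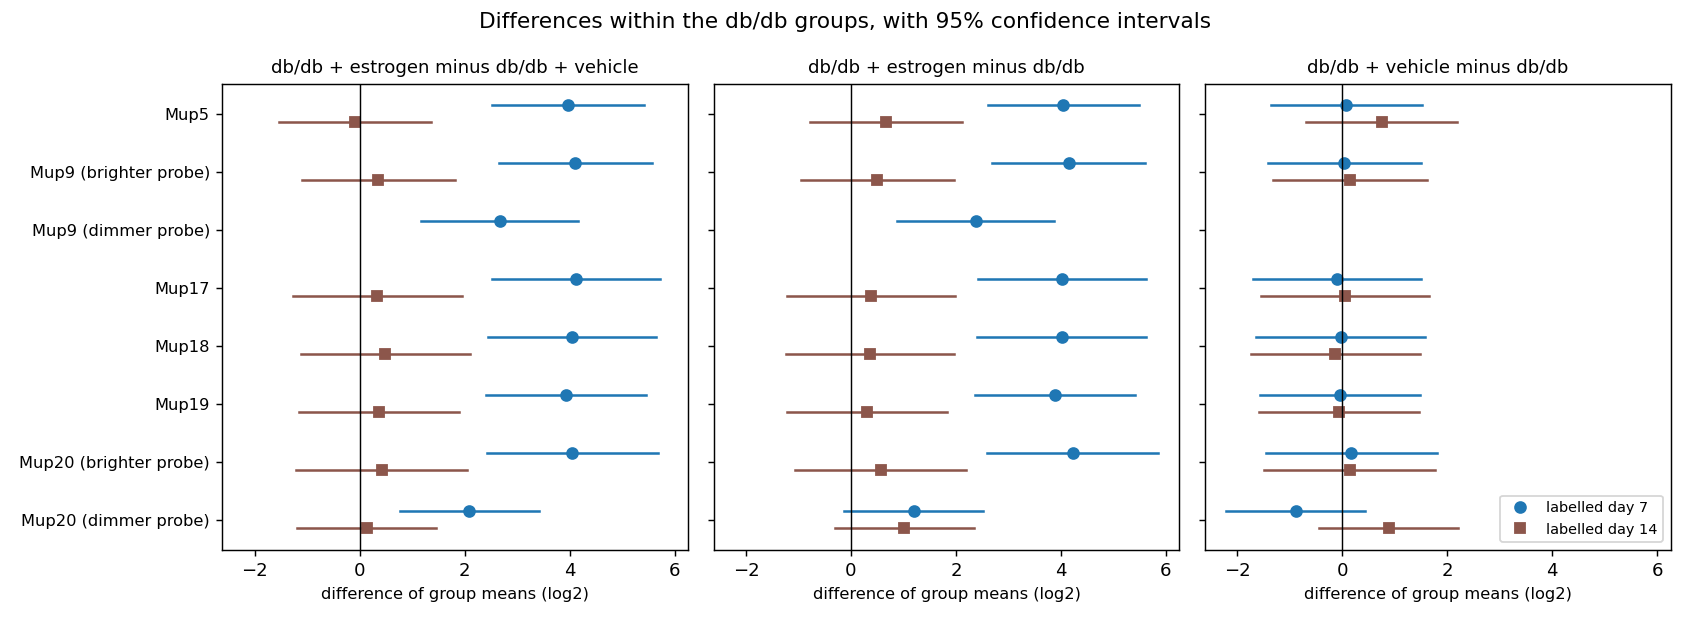
Difference of group means (x axis, log2) for each probe (y axis) in 3 comparisons within the db/db groups, with circles for labelled day 7 and squares for day 14. Lines are 95% confidence intervals from the limma fit, and probes that were not tested are left out. On day 7 the estrogen differences of 6 probes lie near 4, while the vehicle differences and all of day 14 have intervals that cross 0.

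Estrogen was also compared with untreated db/db wounds. These arrays had served to choose the members as low in db/db, which by itself favours a higher value in the other group. On day 7, 7 of 8 probes were called higher, against 5.20% of all probes (9.91% in either direction), and the same number did not overlap, against 53.5%. Among the 7 called, the dimmer Mup9 probe was above background only with estrogen and entered the test through that group alone. It was at least 2.01-fold higher, and limma's adjusted p was 0.0705. The 6 probes above background throughout rose by 3.89 (Mup19) to 4.22 (brighter Mup20 probe), and limma's adjusted p ran from 0.00659 for the brighter Mup9 probe to 0.0117 for Mup18. These 6 passed adjustment, as did 5.83% of all probes. Without estrogen replicate 2 none of the 6 passed it (limma's adjusted p from 0.0603 to 0.0937), and without untreated replicate 2 the range was 0.0393 to 0.0677. The dimmer Mup20 probe differed by 1.20 (SE 0.59, adjusted p = 0.303) and was not called. On day 14, 7 probes were tested, 0 were called in limma and none had an unadjusted p below 0.05, against 3.91% of all probes called. Their differences ran from 0.31 for Mup19 to 1.02 for the dimmer Mup20 probe.

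Vehicle alone was compared with untreated wounds in the same way. On day 7, 7 probes were tested and 0 were called in limma, and on day 14 again 0 of 7. None had an unadjusted p below 0.05 on either day. Of all probes, 4.82% and 7.51% were called. Mup17 differed by −0.10 on day 7 (95% confidence interval −1.70 to 1.502) and by 0.05 on day 14 (−1.55 to 1.65). Mup5 differed by 0.08 (−1.36 to 1.52) and 0.75 (−0.69 to 2.19). On day 7 the 2 slides went opposite ways: 0 of 8 probes were higher with vehicle on one, with a median of −0.99, and 8 of 8 on the other, with a median of 0.98.

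The members moved as a block between both arrays of a group, often by more than most probes did. In untreated db/db wounds of day 7, all 7 probes above background on both arrays were higher on replicate 1, by 1.24 to 1.78 on the log2 scale, while 9.25% of all probes differed by over 2-fold. On day 14 all 6 such probes were higher on replicate 1 by 1.48 to 1.95, with 2.29% of all probes beyond 2-fold. In WT of day 7 all 8 were higher on replicate 1 by 1.06 to 1.44 (6.19% of all probes beyond 2-fold). In vehicle wounds of day 14, 5 of 7 were over 2-fold higher on replicate 2 (3.11% of all probes). Mup5 did not share that gap: its vehicle arrays of day 14 were at −4.77 and −4.48, while the other 5 brighter probes differed by 1.42 to 1.67.

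In estrogen wounds of day 14 the 7 probes above background differed by at most 0.13 between arrays, although 9.29% of all probes differed there by over 2-fold. In estrogen wounds of day 7, 7 of 8 were higher on replicate 2, with a median of −0.84 for replicate 1 minus replicate 2, and none exceeded 2-fold. Against both vehicle and untreated wounds, the estrogen difference of day 7 exceeded the widest of these gaps between arrays for the 6 brighter probes. It did not for the dimmer Mup20 probe against untreated wounds (1.20), and the dimmer Mup9 probe gave only a lower bound.

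**Figure D3:**
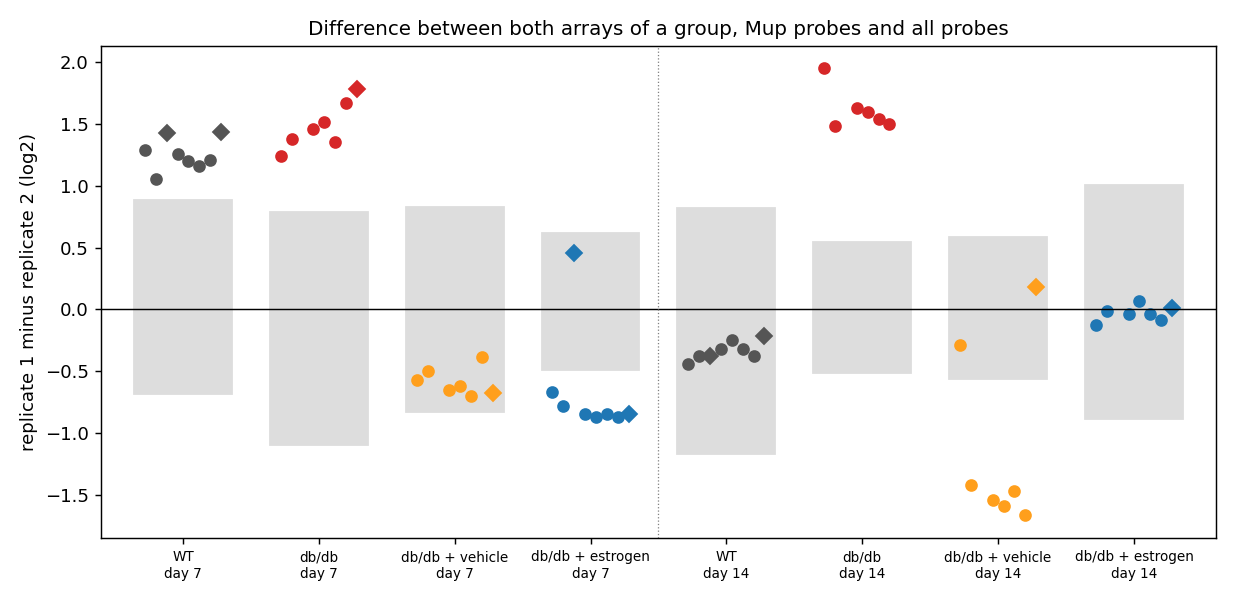
Replicate 1 minus replicate 2 (y axis, log2) of each probe well above background on both arrays, for the 8 groups (x axis). Circles are the 6 brighter probes, diamonds the dimmer Mup9 and Mup20 probes, and the grey box spans the 5th to 95th percentile of all probes above background on both arrays. In both untreated db/db groups every point lies above the box, by 1.24 to 1.95 above 0, and in estrogen wounds of day 14 all lie close to 0.

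Over the 16 arrays the levels of the 6 brighter probes had a Pearson r of 0.994 to 1.000 with each other. Much of that is the WT to db/db difference all share. With the mean of each group removed, the median r over these 15 pairs was still 0.993, and the lowest, 0.88, was that of Mup5 with the brighter Mup20 probe. The dimmer Mup20 probe had a median r of 0.95 with the 6 over all arrays and 0.75 without group means. The dimmer Mup9 probe had 0.92 and −0.01, and it was not well above background on most arrays. These values are descriptions over the same 16 arrays, whose points share group and slide, and probes that cross-hybridise would move together as well.

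Outside the chosen members, 6 probes of the other family genes Mup2, Mup3, Mup4, Mup6 and Mup21 were measured. Mup2 is number 4 in the order of the cluster and Mup9 number 6. The Mup2 promoter was nearly identical to those of the recent copies, and whether its probe also reads their transcripts was not checked. Mup2 stood at −4.08 and −3.47 with vehicle and at −1.26 and −0.86 with estrogen on day 7. It rose by 2.72 (SE 0.54, limma's adjusted p = 0.0303). Mup3, at the far end of the cluster, rose by 3.59 (SE 0.62, adjusted p = 0.0182) and the brighter Mup4 probe by 3.62 (SE 0.62, adjusted p = 0.0177). Mup21, the last gene of the cluster, was at −5.14 and −5.06 with vehicle and −5.05 and −4.90 with estrogen. Its difference was 0.12 (95% confidence interval −0.67 to 0.91, adjusted p = 0.882). Against untreated db/db, Mup21 was higher with estrogen by 0.86 on day 7 (0.07 to 1.65) and by 0.98 on day 14 (0.19 to 1.77). With folds under 2 it was not called, and limma's adjusted p was 0.206 and 0.433. Whether it differed from the members was not tested. Mup21 was at 15.3% of WT in db/db wounds on both days. Mup6 was above background on the 4 WT arrays alone, and the dimmer Mup4 probe on none.

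Genes beside the cluster were counted from 10 measured protein-coding neighbours on each side. Of these 20, 0 were called higher and 1 lower with estrogen against vehicle on day 7 in limma, with a median log2 difference of −0.21. The 1 was Bspry (−1.78, SE 0.71, limma's adjusted p = 0.195). Bspry encodes an epithelial protein with B-box and SPRY domains. On day 14 none of the 20 was called in that comparison. Beside this list and those below, 8.98% of all probes tested were called between estrogen and vehicle on day 7, and 4.67% were called higher. On day 14 the share called in either direction was 0.984%.

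Among 21 measured genes of other lipocalins, 14 could be tested on day 7 between estrogen and vehicle. There, 3 were called higher and 1 lower, and the median was 0.12. Ambp, which encodes the precursor of the carrier alpha-1-microglobulin, rose by 2.70 (SE 0.46, limma's adjusted p = 0.0168), and Orm3, an orosomucoid, was called at 2.44 (SE 0.94, adjusted p = 0.179). Lcn2, a lipocalin of neutrophils that binds bacterial iron carriers, fell by 2.21 (log2, SE 0.45, adjusted p = 0.0328).

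Genes that regulate Mup genes in liver, or that may do so, were counted in the same comparison. Of 20 genes, among them the growth hormone receptor and its signalling chain and nuclear hormone receptors, 4 were called higher with estrogen on day 7 and 0 lower, with a median of 0.51. Esr1, the main estrogen receptor, was called at 1.39 (SE 0.36, limma's adjusted p = 0.0671), from −3.31 and −3.41 to −2.10 and −1.85. Prlr, the prolactin receptor, was called at 1.19 (SE 0.45, adjusted p = 0.174). On day 14 none of the 20 was called between estrogen and vehicle.

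Markers of cell types moved on the same arrays. Of 13 measured hair follicle genes (14 in the list), 9 were called higher with estrogen than with vehicle on day 7 and 0 lower, with a median of 2.09. Krt33a, a hair cortex keratin, differed by 4.87 (SE 1.46, limma's adjusted p = 0.0993), and the inner root sheath keratins Krt25 and Krt71 by 4.57 and 4.40 (adjusted p = 0.106 and 0.160). The summed level of the list, in units of the array's 75th percentile, was 12.08 to 16.2 with estrogen, 1.48 to 4.66 with vehicle and 0.721 to 0.942 in untreated db/db on day 7. In WT it was 2.74 to 39.2 on day 7 and 1.32 to 1.63 on day 14, although the members were high on all 4 WT arrays. All 13 markers were above background on both estrogen arrays of day 7, and 3 were on neither untreated array. Their part in the Mup difference was not tested.

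Neutrophil markers moved the other way. With estrogen against vehicle on day 7, 7 of 12 were called lower and 0 higher, with a median of −2.43. S100a8, a calcium-binding alarm protein of neutrophils, differed by −5.66 (SE 0.45, adjusted p = 0.00121 in limma). The summed level was 53.8 to 71.99 with estrogen and 480 to 509 with vehicle. A sum weighs the brightest genes most. In untreated db/db of day 7 it was 507 to 570, near that with vehicle, although the list median of vehicle against untreated was −2.22. Each of the 12 markers was above background on at least 1 array of both groups. Their part in the Mup difference was not tested.

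Hepatocyte markers were looked at because liver is the main source of these proteins. With estrogen against vehicle on day 7, 10 of 14 were tested, of which 1 was called higher and 0 lower. That 1 was Ttr, the thyroxine carrier, at 3.002 (SE 1.11, adjusted p = 0.163). The summed level was 2.37 to 3.08 with estrogen and 2.03 to 2.66 with vehicle. In WT the sum was 5.80 to 7.44 on day 7 and 6.90 to 7.52 on day 14, above all db/db-group arrays, of which the highest was 5.78. Alb is the albumin gene and the defining marker of the list. On day 7 it was at −4.53 and −5.57 in WT and at −1.28 and −7.88 in db/db, the last not well above background. With estrogen on day 7 it was at −6.99 and −7.55, and with vehicle at −7.23 and −7.00. Of these only −7.23 was well above background. On day 14 it was at −5.49 and −5.01 in WT and at −6.90 and −5.85 in db/db, and under treatment between −5.78 and −5.31. WT was thus above untreated db/db on 3 of the 4 db/db arrays, the exception being replicate 1 of day 7. The part of these genes in the WT levels of the members was not tested.

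Of 10 keratinocyte genes tested, 0 were called between estrogen and vehicle on day 7 in limma, and of 10 adipocyte genes also 0. Of 8 sebaceous gland genes tested, 2 were called higher and 1 lower. Scd3, a sebaceous desaturase, rose by 1.74 (SE 0.38, adjusted p = 0.0425), and Dgat2l6, an acyltransferase, was called at −3.10 (SE 0.73, adjusted p = 0.0520). Of 6 mammary epithelial genes tested, 2 were called lower and 0 higher. Elf5, a factor of milk-producing cells, fell by 3.06 (log2, SE 0.65, limma's adjusted p = 0.0381). Ltf, the iron carrier lactotransferrin, was called at −1.92 (SE 0.75, limma's adjusted p = 0.185). Ltf is on the neutrophil list as well, so these lists are not separate. Against untreated db/db on day 7 it differed by −8.82 with estrogen and by −6.91 with vehicle, and the mammary sum includes it. The mammary sum was 0.251 to 0.394 with estrogen, 0.725 to 1.78 with vehicle and 4.90 to 10.8 in untreated db/db on day 7, with 5 of its 11 genes above background on neither estrogen array. The part of these lists in the Mup difference was not tested.

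**Figure D4:**
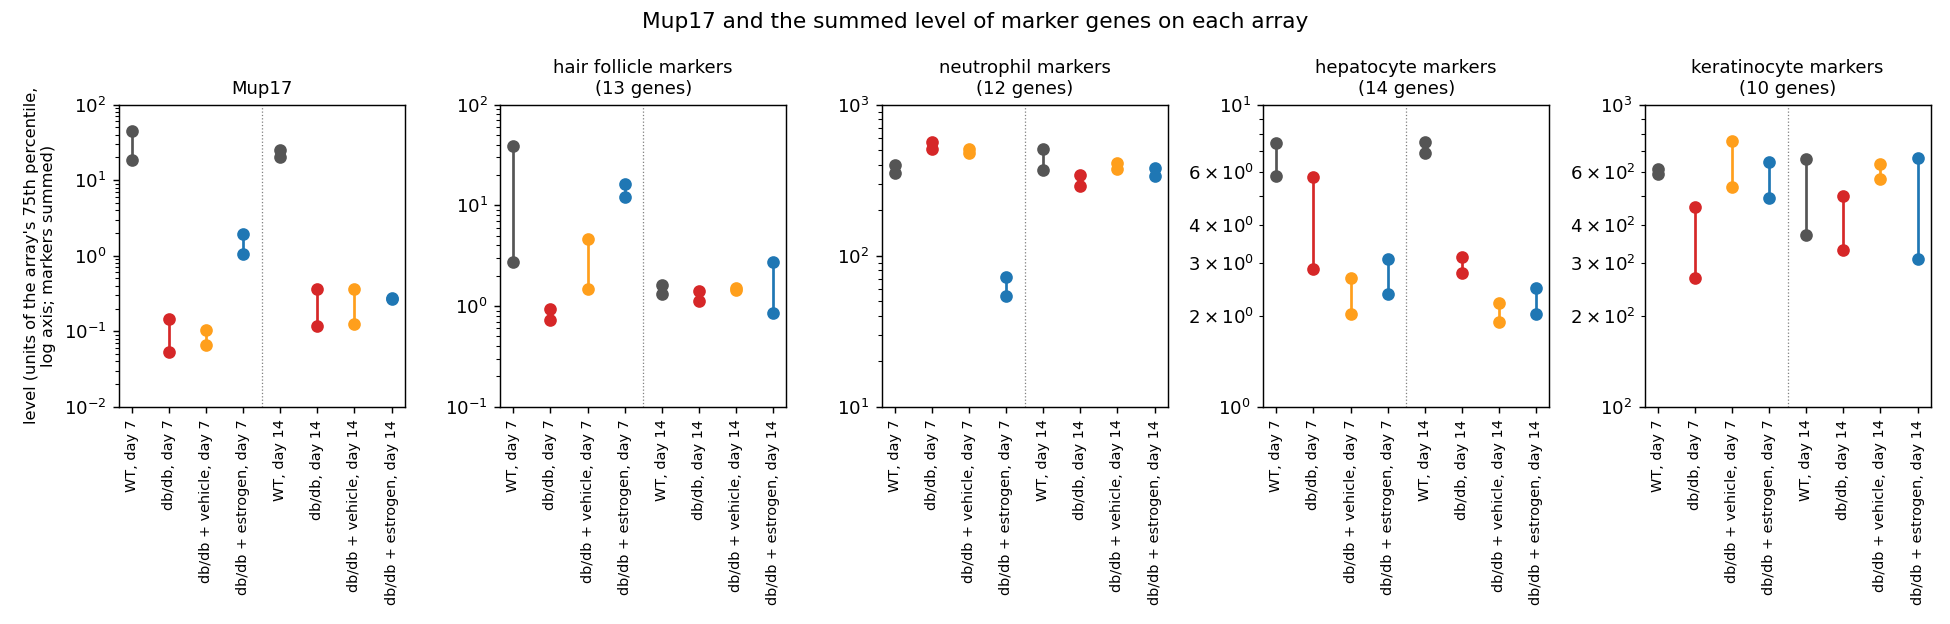
Level of Mup17 and summed levels of 4 marker lists on each array (y axis, in units of the array's 75th percentile, log axis), for the 8 groups (x axis). Points are the 2 arrays of a group, joined by a line. On day 7 with estrogen the hair follicle sum is 12.08 to 16.2 and the neutrophil sum 53.8 to 71.99, while Mup17 is also high in WT of day 14, where the hair follicle sum is 1.32 to 1.63.

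The genes whose pattern was most like the members' mean pattern were sought among 17610 genes outside the family. Over the 16 arrays they were Zfp40 (Pearson r 0.96), Skint4 (0.96), Sec22c (0.95), D130040H23Rik (0.95) and 9230112J17Rik (0.95). Skint4 is a skin gene of the immunoglobulin superfamily. On day 7 its mean level was 0.55 in WT, −9.07 in db/db, −6.07 with estrogen and −8.51 with vehicle. The db/db and vehicle levels lie near those of the dimmer Mup9 probe there (−8.77 and −9.07), which was not well above background. Differences of Skint4 from these 2 groups may therefore not be exact. Over the 12 db/db-group arrays alone they were Ece2 (0.94), Upb1 (0.94), Slc39a3 (0.93), Mccc1 (0.93) and Kctd12 (0.92). Upb1, an enzyme of pyrimidine breakdown, had a mean of −1.64 with estrogen and −4.26 with vehicle on day 7. No gene was in both lists of 5. Each r is a description over arrays that share group and slide.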

How the data were processed

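Whole-wound RNA of 16 samples was labelled with cyanine-3 and hybridised to Agilent mouse 4 x 44 K arrays, 1 sample an array. The authors extracted the spot intensities with Agilent Feature Extraction 11.0.1.1, which subtracts background and removes spatial trends, and deposited these intensities unscaled between arrays. They also deposited a table of ratios, each processed signal over its array's 75th percentile, which was used as an alternative only. Its values matched the scaled intensities within 1% for at least 99.86% of its 34643 probes. The authors' comparison results were not used.

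Control spots and outlier spots were left out and spots of a probe averaged, leaving 39429 probes. Values are log2 intensity minus the array's log2 75th percentile. Differences were fitted with limma 3.58.1 in R 4.3.3 (lmFit, eBayes) on the 16 arrays with 8 group means and 8 residual degrees of freedom. Only probes that Feature Extraction marked as well above background in both replicates of some group in the comparison were tested. Called means a two-sided unadjusted p below 0.05 and a fold above 2, the thresholds of the study's methods. Benjamini-Hochberg adjusted p-values cover all probes tested in a comparison. An exact permutation test of 2 arrays against 2 cannot go below p = 0.333. Precision is limited by the number of arrays.

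Probes were named by matching their accessions to RefSeq, which named 27427. Every Mup probe was named, genes of the lists by counts with values for at most 3 a list, those of largest difference between estrogen and vehicle on day 7, and the 5 genes of most similar pattern over 16 and over 12 arrays. One gene that this rule names is not reported here. Alb was added as a defining marker after its values were seen. The members and lists were chosen with earlier results of these data known. Promoters were aligned pairwise with Biopython 1.88. The fit was tested on simulated data. Alternatives covered background correction, scaling, the filter and floor on dim probes, the deposited ratios, the arrays in the fit, slide, replicate number, threshold and each array left out.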

Additional observations from a re-analysis of the deposited data

Results flagged for a closer look

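The estrogen minus vehicle difference of labelled day 7 exceeded that of day 14 for all 8 probes when the difference between the days was itself fitted. It was 4.05 on the log2 scale for Mup5, 3.75 for the brighter Mup9 probe, 3.78 for Mup17, 3.55 for Mup18, 3.57 for Mup19, and 3.63 and 1.95 for the brighter and dimmer Mup20 probes. For the dimmer Mup9 probe the value was 3.97, which is no exact difference: both its arrays were above background in 1 of the 4 groups alone, and after normexp correction it was 0.47 and not called. None passed adjustment over all probes, with limma's adjusted p from 0.164 to 0.427. Probes of near-identical copies may cross-hybridise, so the 8 values may not be independent of each other. Labelled day and scan day cannot be told apart.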

How the results depend on the processing

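Every called member difference kept its direction under the alternatives run. On day 7, 8 probes were called between estrogen and vehicle with each array left out, and 7 to 8 between estrogen and untreated db/db; the RefSeq-named probes alone, an alternative chosen after seeing the data, gave 6 and 5. The dimmer Mup20 probe was the eighth, without db/db replicate 1. For the difference between the days the range was 7 to 8, and 0 with the adjusted threshold. Between estrogen and vehicle on day 14 it was 0 to 0.

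Where no probe had been called, single probes appeared. Without the filter on dim probes, 1 was called between vehicle and untreated db/db on day 14 (the dimmer Mup9 probe), and with only the arrays compared, 1 between estrogen and untreated db/db on day 14 (the dimmer Mup20 probe). Leaving out 1 array gave 0 to 1 in estrogen against db/db on day 14 (Mup5, without db/db replicate 1), 0 to 1 in vehicle against db/db on day 7 (the dimmer Mup20 probe, lower, without db/db replicate 2) and 0 to 1 on day 14 (Mup5 without db/db replicate 1, the dimmer Mup9 probe without vehicle replicate 2). A lone array left in a group was assumed to vary like the other groups. Without db/db replicate 2 of day 14 the median over the members was −0.31 for estrogen and −0.60 for vehicle, and without vehicle replicate 2 it was −0.63 for vehicle against db/db and 2.92 for the difference between the days. The cause was not tested.

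The dimmer Mup9 probe differed by 0.52 between estrogen and vehicle on day 7 after normexp correction and by 0.85 with a floor on dim signals, and was then not called. For the difference between the days it lost its call likewise, at 0.47 and 1.04. The dimmer Mup20 probe lost its call for the difference between the days after normexp correction, quantile normalization, the slide or replicate block, and without any 1 array of day 14, vehicle replicate 1 or estrogen replicate 2 of day 7.

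With the replicate number as a block, 8 and 7 probes were called on day 7 and 7 for the difference between the days. For the 6 brighter probes between estrogen and vehicle on day 7, limma's adjusted p was then 0.0408 to 0.0544, with Mup5 and Mup9 below 0.05. Between groups of a day, deviations of same-numbered arrays correlated between −0.45 and 0.39, with no common sign. On day 7 the number is also the slide, and these values do not settle whether same-numbered samples were paired.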
